A study of Mus musculus with 4 samples.

Results

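Macrophages of 4 airspace clusters were compared between mice that had breathed mineral dust and mice that had breathed filtered air, with each cluster taken on its own so that a shift in the mix of clusters could not enter a ratio. The cells were those given the refined cluster Macrophage - 2, Macrophage - 3, Macrophage - 5 or Macrophage - 7 (proliferating) and the coarse type Alveolar Macrophage in the metadata deposited by the authors. They numbered 3853 of the 9925 cells of the series: 566 control and 631 APM cells in cluster 2, 906 and 179 in cluster 3, 560 and 464 in cluster 5, and 241 and 306 in cluster 7. A gene was followed when its dust to air ratio agreed in all 4 clusters.

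The series profiled single cells from the lavage fluid of C57BL/6 mice, pooled from 7 mice into 1 library per group. The control group breathed filtered air, and the APM group breathed Afghanistan particulate matter, a desert dust, at 5 mg/m3 in whole-body chambers for 6 hours a day on 12 consecutive days. Both of these groups received saline through the nose, on days 22 and 29 and again on days 36, 37 and 38, beginning 9 days after the last exposure, and cells were taken on day 39. The other 2 groups, HDM and HDM+APM, had the same air or dust followed by 10 µg of house dust mite allergen on those days. Since each group is a single pool, no ratio below has a replicate check: the 4 clusters of a library share its mice, its droplets and its free RNA, and are not replicates.

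Alveolar macrophages are long-lived phagocytes that clear inhaled particles, surfactant and cell debris from the air sacs. They renew themselves locally, hold large stores of iron and zinc-binding proteins, and keep inflammation low at rest. Mineral particles are taken up into phagosomes and carried to lysosomes, where metals can be released into the cell.

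The deposited values were counts of unique molecular identifiers (UMIs), which count each captured transcript once. Summed over the cells of a cluster and library, they came to between 932865 UMIs (cluster 3, APM) and 5359747 UMIs (cluster 3, control), and each sum was scaled to CPM, so that all 8 sums had the same total. Median depth per cell was lower in APM in every cluster, at 2692 against 3294 UMIs in cluster 2, 5082 against 5619 in cluster 3, 4320.5 against 4563 in cluster 5 and 3637 against 4102 in cluster 7. Mitochondrial transcripts made up 2.93 to 3.01% of the APM sums and 3.32 to 3.70% of the control sums. The lowest level of 17 of the 18 alveolar macrophage markers over the 8 sums lay above that of the non-macrophage cells of both libraries, and Krt19 was the exception. Those 207 cells include 7 control and 68 APM cells labelled epithelial whose UMIs were mostly haemoglobin, which lowers the CPM of other genes. Margins were small for some markers, as for Siglecf (25.2 against 17.9 CPM), and large for others, as for Marco (295 against 33.2 CPM). Cluster 3 had no alveolar macrophage marker among its 10 genes with the highest fold over all other cells, but a monocyte-derived macrophage marker, Ms4a7, and a granulocyte marker, Clec4d, so clusters are named here by number only. The cell barcodes of 16 cells occurred in both the control and the APM library.

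A gene counted as called in a cluster when it had at least 20 UMIs over both libraries there, a CPM at least 25% above that of the other library, and a 95% exact binomial interval of the ratio that left out 1. Intervals cover counting error only. In cluster 2, 406 of 8156 genes were higher in APM (4.98%) and 614 lower (7.53%). In cluster 3, 446 of 8981 were higher (4.97%) and 463 lower (5.16%). In cluster 5 the calls leaned to the lower side, with 488 of 8847 higher (5.52%) and 1187 lower (13.4%). In cluster 7, 397 of 7822 were higher (5.08%) and 518 lower (6.62%). Of the 7402 genes measured in all 4 clusters, 58 were higher in APM in every one (0.784%) and 56 were lower in every one (0.757%). When each cluster's ratios were centred on its median gene, those counts became 69 higher and 43 lower.

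The higher genes had a median log2 ratio of 0.64, averaged over the 4 clusters, and the lower genes one of -0.54, beside -0.05 over all 7402 measured genes. Log2 ratios were taken with 10 CPM added to each level, which understates the change of scarce transcripts. At least a 2-fold mean change was reached by 15 of the 58 higher genes and by none of the 56 lower genes. With 1 CPM added, Slc39a14, Gm10076 and Cln6 passed it among the lower genes named here, with means of -1.39, -1.13 and -1.02. At the edge of the rule, Atp6v1g1 and Ctsd were included with a smallest fold of 1.252 over the clusters, while mt-Nd4 at 1.249 and Sub1 at 1.243 were not. The plot of ratios for the 15 genes in each direction with the largest smallest change shows the 4 clusters side by side. The highest and lowest log2 ratio of a gene over the clusters lay 0.34 apart at the median of the higher genes and 0.25 apart at that of the lower genes.

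**Figure D1:**
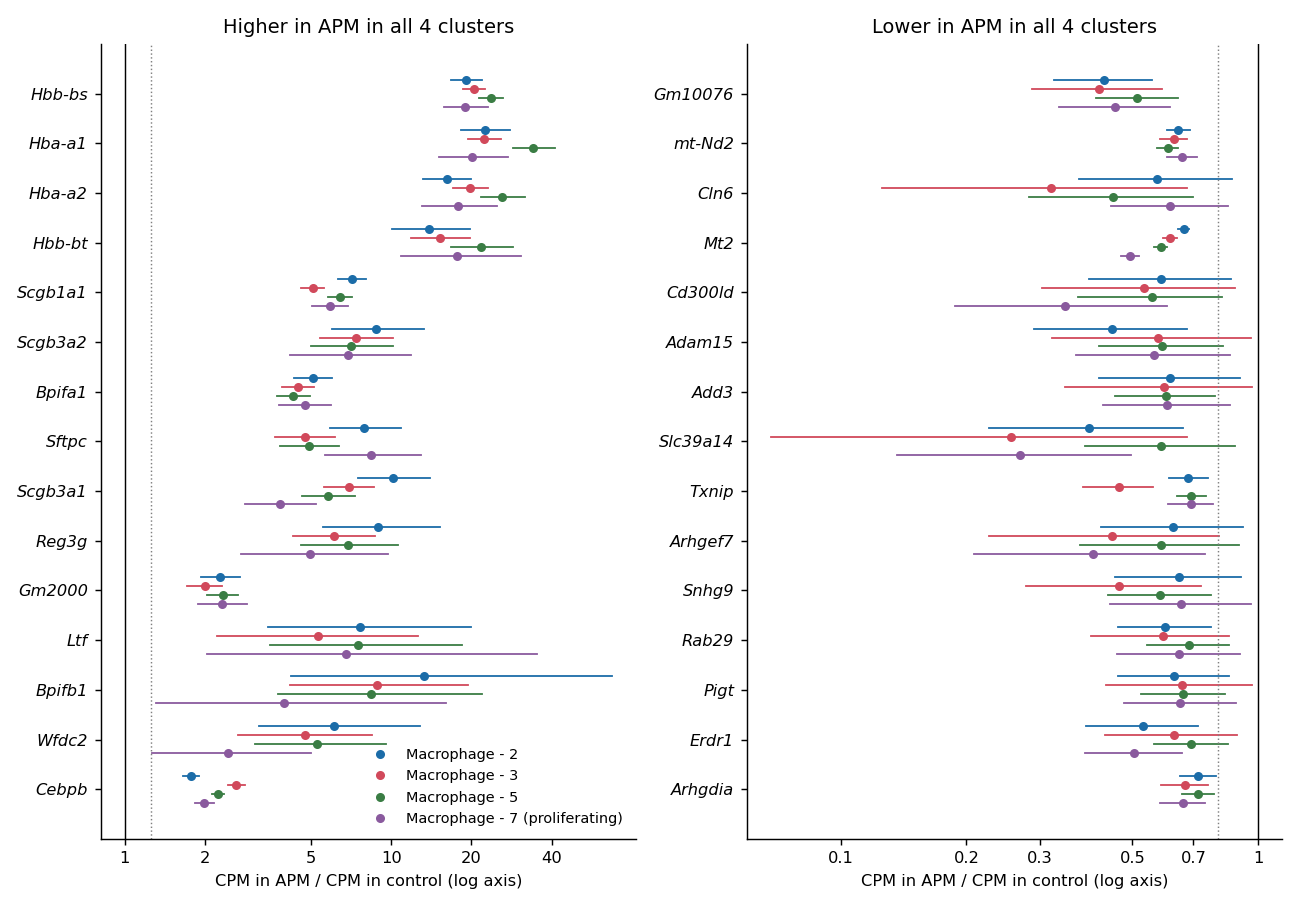
CPM in APM divided by CPM in control, on a log axis, for the 15 higher (left) and 15 lower (right) genes with the largest smallest change over the clusters; points are the ratio in 1 cluster, bars its 95% exact binomial interval (counting error only), the solid line is a ratio of 1 and the dotted line the 25% rule. The 4 haemoglobin genes stand at 13.9 to 34.1 on the left, above the secretory genes, and on the right no gene is lower by 2-fold in all 4 clusters.

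The largest of the shared differences were the 4 haemoglobin genes, which encode the oxygen carrier of red blood cells. Hbb-bs (chromosome 7, 103826534 to 103828096, minus strand, mm10) stood at 2464, 2169, 3146 and 2160 CPM in clusters 2, 3, 5 and 7 of the APM library and at 129, 106, 133 and 114 CPM in the same clusters of the control library. The ratios were 19.1, 20.5, 23.7 and 19.0, with a 95% interval of 21.3 to 26.4 at the highest of these. Hba-a1, Hba-a2 and Hbb-bt had mean log2 ratios of 4.33, 4.01 and 3.50. The pairs Hbb-bs and Hbb-bt, and Hba-a1 and Hba-a2, are near-identical at their ends, so reads may have been split between the members of a pair.

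Cells outside the 4 clusters carried these transcripts too. In the APM library Hbb-bs stood at 4346 CPM in T cells, 2068.5 in dendritic cells and 3136 in granulocyte-like cells, and in the control library at 215, 152 and 339 CPM in 13, 5 and 7 cells. One control cluster was an exception, the 21 cells of Macrophage - 4 with 2162 CPM of Hbb-bs. Levels were uneven among APM macrophages. Haemoglobin transcripts together came to 3403 CPM in Macrophage - 1, 21471 in Macrophage - 8 and 9920 in Macrophage - 9. In APM clusters 2, 3, 5 and 7 they came to 4779, 4257, 6353 and 4035 CPM. At least 1 haemoglobin UMI was found in 100% of APM cells in each of the 4 clusters, and in 56.9, 70.0, 70.7 and 61.4% of control cells of clusters 2, 3, 5 and 7. Hbb-bs made up 49.5 to 53.5% of haemoglobin UMIs in the APM clusters and 50.4 to 54.2% in the control clusters, so the make-up was alike while the amount differed. The cells labelled epithelial, 7 in control and 68 in APM, carried haemoglobin at 542780 and 538950 CPM, which is over 50% of their UMIs. Lavage was done so as to limit blood, per the labels' protocols. How much of the haemoglobin signal lay inside macrophages was not tested.

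Secretory products of the airway and alveolar lining formed the next group. Scgb1a1 (chromosome 19, 9083636 to 9087958, minus strand), the club cell secretory protein, stood at 1247, 858, 1032 and 1059 CPM in APM clusters 2, 3, 5 and 7 and at 175, 169, 161 and 180 CPM in control. The ratios ran from 5.06 (4.60 to 5.57) in cluster 3 to 7.12 (6.33 to 8.03) in cluster 2. Bpifa1, an antibacterial protein of the nasal and upper airway lining, was 4.28-fold to 5.08-fold higher, and Sftpc, surfactant protein C of type II alveolar cells, 4.74-fold to 8.39-fold. Scgb3a1, Scgb3a2, Bpifb1, Wfdc2 and Cyp2f2, all genes of the airway lining, and Reg3g and Ltf, both antimicrobial proteins of mucosal secretions, were higher in all 4 clusters as well.

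Of the 13 epithelial markers listed, 8 were measured in all 4 clusters and 7 of these were called higher in each, with a median mean log2 ratio of 2.18. Epcam, a surface protein of epithelial cells, was the exception, called lower in cluster 2 at 23.5 against 36.5 CPM and not called in the others. The summed level of the list was 1748 to 2489 CPM in the APM clusters and 356 to 459 CPM in the control clusters. A second list, of 13 lung surfactant and secretory transcripts, had 9 measured in all 4 clusters. Of these, 7 were called higher in each cluster, 2 had means below 0, and 1 was called lower in cluster 2. Its summed level was 13858, 18125, 16019 and 11431 CPM in APM clusters 2, 3, 5 and 7. In control it was 14504, 19490, 14769 and 11126 CPM. In the cells labelled epithelial of both libraries together, Scgb1a1 stood at 52884 CPM and Sftpc at 50425 CPM. Outside the 4 clusters of the APM library, Scgb1a1 stood at 1470 CPM in T cells, 1047 in dendritic cells and 1476 in granulocyte-like cells. In the control library it stood at 1419 CPM in the 13 T cells, 50.6 in the 5 dendritic cells and 339 in the 7 granulocyte-like cells. The part of the lining's free RNA in these ratios was not tested.

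**Figure D2:**
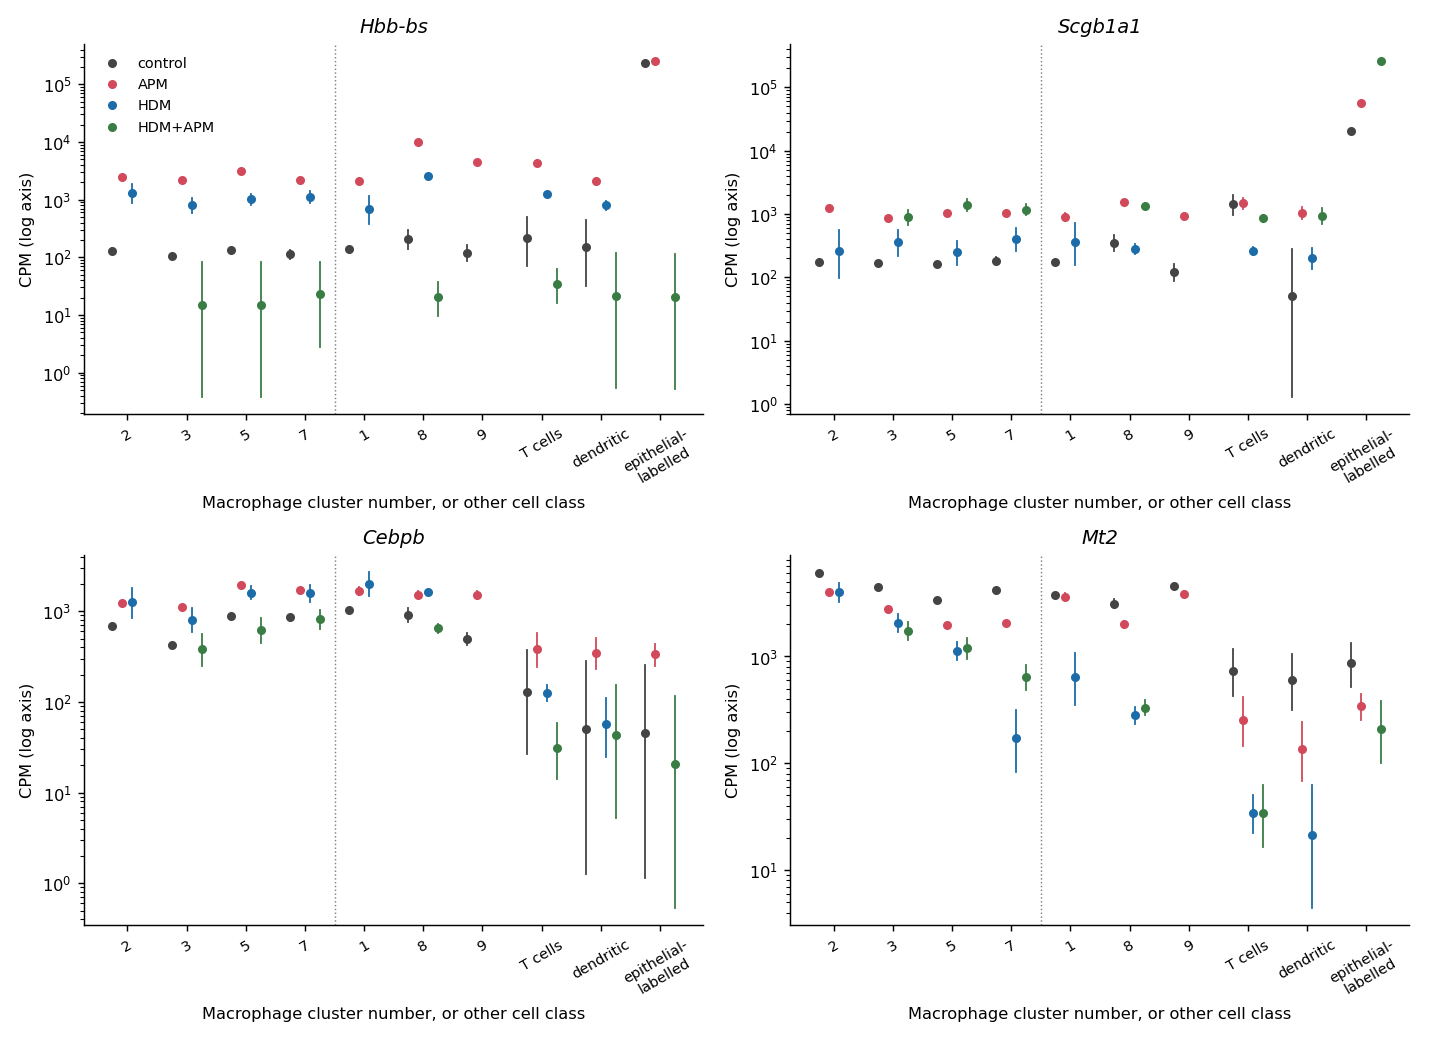
CPM on a log axis of Hbb-bs, Scgb1a1, Cebpb and Mt2 in clusters 2, 3, 5 and 7 (left of the dotted line) and in other cell classes, by library; points are sums over the cells of 1 class in 1 library with at least 5 cells and 1 UMI of the gene, bars are 95% exact Poisson intervals. In the APM library, T cells lie above the 4 clusters for Hbb-bs and Scgb1a1. Dendritic cells lie just below the range of the 4 clusters for Hbb-bs and within it for Scgb1a1. Cebpb and Mt2 are lower in T cells and dendritic cells than in any of the 4 clusters.

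Without the members of the red blood cell, epithelial and secretory lists, 47 of the 58 higher genes remained, and 4 of these were at least 5-fold more abundant in the cells labelled epithelial than in the clusters. The other 43 had a median mean log2 ratio of 0.54, and 2 of them, Gm2000 and Cebpb, reached a 2-fold mean. A near-identical copy among annotated transcripts was found for 26 of the 58 higher genes (44.8%) and for 10 of the 56 lower genes (17.9%), against 20.6% of all measured genes. Gm2000 shares its end with Rpl35, and Rps27rt with Rps27, so these values cannot be assigned to 1 gene with certainty.

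Cebpb (chromosome 2, 167688915 to 167690418, plus strand), a transcription factor of myeloid cells that drives acute-phase and inflammatory genes, had, after Gm2000, the largest mean log2 ratio of the 43, at 1.08. It stood at 1226, 1101, 1966 and 1702 CPM in APM clusters 2, 3, 5 and 7 and at 694, 420, 877 and 855 CPM in control. The ratios were 1.77 (1.65 to 1.89), 2.62 (2.43 to 2.82), 2.24 (2.13 to 2.36) and 1.99 (1.84 to 2.15). The gene lies opposite Tmem189 on the other strand, and no source used here says whether counting used strand. In T cells Cebpb stood at 383 CPM in APM and 129 CPM in control, from 24 and 3 UMIs.

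Jund, Cdkn1b and Rgcc were also higher in all 4 clusters. Jund, a subunit of the AP-1 transcription factor, had ratios of 1.37 to 1.78, Cdkn1b, the cell cycle inhibitor p27, 1.65 to 2.54, and Rgcc, a regulator of the cell cycle, 1.60 to 3.22. Jund was the 1 of 16 measured immediate early genes called higher in all 4. That list had 1, 1, 1 and 2 members called higher and 0, 2, 8 and 2 lower in clusters 2, 3, 5 and 7. Its median was -0.10, beside -0.05 over all measured genes, with 11 means below 0. Rgcc is also among the 10 leading genes of cluster 5, which was formed from these same cells. Bhlhe41, a repressor that marks alveolar macrophage identity, stood at 473, 528, 359 and 243 CPM in APM and 329, 284, 269 and 191 CPM in control. Within each cluster its APM level was the higher, at 1.27-fold to 1.86-fold, although the ranges over clusters overlapped. Notch2, a signalling receptor, and Rheb, an activator of the growth kinase mTORC1, were higher at 1.46 to 1.72 and 1.35 to 1.51. Cdkn1b, Rgcc, Bhlhe41, Notch2 and Rheb were named after their values were seen.

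Further genes higher in all 4 clusters follow with their values. Abhd2, a lipid hydrolase, stood at 75.0, 78.3, 88.2 and 84.5 CPM in APM and 33.8, 33.0, 41.9 and 44.2 CPM in control, ratios of 1.91 to 2.37. Nme2, a nucleoside diphosphate kinase, had ratios of 1.68 to 2.19, with near-identical copies in the annotation. Wfdc17, a small secreted protein of macrophages, stood at 431, 855, 484 and 356 CPM in APM and 308, 495, 213 and 185 CPM in control. Its ratio was smallest in cluster 2 at 1.40 and largest in cluster 5 at 2.27. Ncoa4, the receptor that delivers ferritin to autophagy, had ratios of 1.44 to 1.56, and was the 1 member of the metal and iron list higher in all 4 clusters. Cfb, complement factor B, had ratios of 1.35 to 2.00, and Ch25h, which makes the antiviral sterol 25-hydroxycholesterol, 1.28 to 1.88. Uqcrfs1, a subunit of respiratory complex III, and Rpl35, a ribosomal protein, had mean log2 ratios of 0.46 and 0.50. Abhd2, Nme2, Wfdc17 and Ch25h were named after their values were seen, as were Cyp2f2 and Rps27rt above.

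Metal handling supplied one of the most abundant of the lower genes. Mt2 (chromosome 8, 94172664 to 94173568, plus strand, overlapping Gm45774 on the other strand, from which its reads cannot be told apart without strand) encodes metallothionein 2, a small cysteine-rich protein that binds zinc, copper and cadmium, and the metal-sensing factor MTF-1 drives it and its neighbour Mt1 through metal response elements upstream of their starts. The 250 bases before each RefSeq start on GRCm38.p6 are shown, and whether they take in the known elements of either gene was not tested. For Mt2 the RefSeq start is upstream of the start given above. Capitals mark matches of TGCNCNC, the core of the metal response element, on either strand, for Mt2 at chr8:94172368-94172617 and Mt1 at chr8:94178839-94179088, both plus strand.
Mt2: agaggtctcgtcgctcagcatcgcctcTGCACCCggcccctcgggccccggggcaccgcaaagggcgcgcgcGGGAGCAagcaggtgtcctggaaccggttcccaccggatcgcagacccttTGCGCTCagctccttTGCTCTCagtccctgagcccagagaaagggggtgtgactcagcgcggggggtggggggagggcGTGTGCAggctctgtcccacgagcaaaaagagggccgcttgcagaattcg
Mt1: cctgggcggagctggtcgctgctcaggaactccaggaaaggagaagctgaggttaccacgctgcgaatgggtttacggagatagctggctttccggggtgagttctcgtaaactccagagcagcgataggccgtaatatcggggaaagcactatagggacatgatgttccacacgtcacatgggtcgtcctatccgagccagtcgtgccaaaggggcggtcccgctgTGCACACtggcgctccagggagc
The Mt2 window holds 5 matches and the Mt1 window 1, and these counts depend on the start used to place each window. Of 27025 gene windows of that length, 43.8% hold at least 1 match and 4.61% hold 3 or more. The letters occurred in the windows of 19 of the 43 higher genes with a window (44.2%) and 22 of the 42 lower genes with one (52.4%), against 51.7% of measured genes. Searched the same way on both strands, TGACNNNGC, the core of the antioxidant response element, was in 7 of the 43 and 6 of the 42 windows, against 12.3% of measured genes. TTGCNNAA, a pair of C/EBP half-sites, was likewise in 7 and 6 windows, against 7.79% of measured genes. A match is a run of letters and not a measured binding site.

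Mt2 stood at 4014, 2764, 1957 and 2044 CPM in APM clusters 2, 3, 5 and 7 and at 6057, 4494, 3350 and 4145 CPM in control. In each cluster the APM level was the lower, by 1.51-fold (1.46 to 1.55), 1.63-fold (1.56 to 1.69), 1.71-fold (1.65 to 1.78) and 2.03-fold (1.93 to 2.13). Mt1 stood at 17315, 12190.0, 8694 and 9478 CPM in APM and 18765, 16817, 10334 and 12977 CPM in control, and was called lower in clusters 3 and 7 only. Both metallothioneins were lower in APM in every cluster, and in each the difference was smaller for Mt1, which was named after its values were seen.

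Slc39a14, a zinc, iron and manganese importer of the cell membrane, stood at 12.0, 4.29, 17.1 and 11.6 CPM in APM and 30.5, 16.8, 29.1 and 43.2 CPM in control. It was lower by 2.54-fold (1.51 to 4.41), 3.92-fold (1.48 to 14.7), 1.71-fold (1.14 to 2.61) and 3.73-fold (2.01 to 7.34), with wide intervals because its counts were small. Of the 18 genes of metal and iron handling listed, 13 were measured in all 4 clusters, with a median mean log2 ratio of -0.35. That median was -0.09 with a minimum of 50 UMIs, -0.09 with cells thinned to 1000 UMIs and -0.13 with 50 CPM added. Of these, 1, 2, 2 and 2 were called higher and 3, 4, 6 and 7 lower in clusters 2, 3, 5 and 7. Slc39a1, a zinc importer, went the other way, at 123, 142, 184 and 121 CPM in APM and 102, 85.5, 119 and 75.2 CPM in control, called higher in clusters 3, 5 and 7. Hmox1, the haem-degrading enzyme and a leading gene of cluster 2, stood at 3167, 1606, 866 and 1018 CPM in APM and 3699, 2662, 1509 and 1884 CPM in control. It was called lower in clusters 3, 5 and 7. Slc39a1 and Hmox1 were named after their values were seen.

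Sqstm1 and Hspa1a were lower in all 4 clusters. Sqstm1 (p62), an autophagy receptor and a target of the oxidant-sensing factor Nrf2, stood at 649, 527, 268 and 198 CPM in APM clusters 2, 3, 5 and 7 and at 855, 838, 469 and 456 CPM in control. The difference was smallest in cluster 2, at 1.32-fold (1.22 to 1.42), and largest in cluster 7, at 2.30-fold (1.97 to 2.70). Hspa1a, an inducible Hsp70 chaperone, was lower by 1.41-fold, 1.65-fold, 1.80-fold and 3.77-fold in clusters 2, 3, 5 and 7. Its control level in cluster 7, at 299.9 CPM, was well above the 77.8 to 121 CPM of the other control clusters, while the APM levels were 47.2 to 79.5 CPM. It was the 1 of 15 measured heat shock and chaperone genes called in all 4 clusters. The list had 0, 0, 3 and 3 members called higher and 1, 3, 2 and 4 lower in clusters 2, 3, 5 and 7, and its median of -0.03 lay beside the -0.05 of all genes. Cxcl2, a chemokine that recruits neutrophils, stood at 60.7, 47.2, 18.5 and 31.5 CPM in APM and 82.9, 77.2, 42.2 and 79.9 CPM in control.

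A pair of cathepsins and a pair of class I presentation genes were lower in all 4 clusters. Ctsd, the aspartic protease cathepsin D, stood at 3705, 3741, 3422 and 1985 CPM in APM and 4639, 4784, 4577 and 2960 CPM in control, lower by 1.252-fold to 1.491-fold. Ctsh, the protease cathepsin H, was lower by 1.27-fold to 1.66-fold. Of the 30 lysosome and cathepsin genes listed, 29 were measured in all 4 clusters, and 2 of them were lower in all 4 and none higher. Called higher were 1, 2, 1 and 0 of them and called lower 3, 3, 11 and 10 in clusters 2, 3, 5 and 7. The median of the list was -0.13, beside -0.05 over all measured genes, with 24 of the 29 means below 0. The share of all measured genes with a mean below 0 is not given here for any list. Atp6v1g1, a subunit of the proton pump that acidifies lysosomes and not a member of this list, was higher in all 4 clusters, with a mean log2 ratio of 0.45. H2-K1, a class I heavy chain with near-identical relatives, was lower by 1.30-fold to 1.55-fold, and Tapbp (tapasin), which loads peptides onto class I molecules, by 1.36-fold to 1.79-fold. Both are among the 13 class I genes measured, of which 1, 0, 1 and 0 were called higher and 2, 3, 3 and 4 lower. Their median was -0.12, beside the same -0.05, with 10 of 13 means below 0. Laptm5, Gm2a and Naaa, lysosomal proteins, and Hvcn1, the proton channel of the phagocyte membrane, were also among the 56 and, like Atp6v1g1, were named after their values were seen.

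Other genes lower in all 4 clusters follow with their values. Arhgdia, a regulator of the cytoskeleton, stood at 394, 288, 367 and 369 CPM in APM and 549, 432, 510 and 559 CPM in control. Lcp1 (L-plastin), which bundles actin in leukocytes, was lower by 1.34-fold to 1.46-fold, and Add3, an adducin of the membrane skeleton, and Arhgef7, an activator of Rac and Cdc42, were lower by 1.62-fold to 1.68-fold and 1.60-fold to 2.48-fold. Of the 23 listed genes of actin and vesicle traffic, 1 was lower in all 4 clusters and none higher. In clusters 2, 3, 5 and 7, 0, 2, 3 and 3 of them were called higher and 3, 2, 3 and 2 lower, with a median of -0.01. Cd300ld, an immunoglobulin-like receptor of myeloid cells, was lower by 1.71-fold to 2.90-fold, and Adam15, a membrane metalloprotease, by 1.70-fold to 2.24-fold. Txnip, which binds and inhibits thioredoxin, stood at 319, 126, 457 and 365 CPM in APM and 469, 273, 660 and 529 CPM in control, lower by 2.16-fold in cluster 3 and by 1.45-fold to 1.47-fold in the others. Rab29, a small GTPase of vesicle traffic, Cln6, an endoplasmic reticulum protein of lysosomal enzyme transport, Pigt, a subunit that attaches GPI anchors, and the non-coding Snhg9 had mean log2 ratios of -0.58, -0.73, -0.53 and -0.62. Erdr1 had one of -0.67 and no position in the annotation used. Gm10076, which shares its end with the ribosomal protein gene Rpl41, stood at 45.3, 37.5, 51.7 and 55.5 CPM in APM and 106, 90.1, 100.5 and 122 CPM in control.

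Of 12 measured transcripts of the mitochondrial genome, which encode core subunits of the respiratory chain, 6, 5, 7 and 3 were called lower in clusters 2, 3, 5 and 7 and none was called higher. The pair called in all 4 were mt-Nd2 and mt-Nd3. Mt-Nd2, written mt-Nd2 in the files, stood at 881, 861, 873 and 813 CPM in APM and 1368, 1370, 1438 and 1236 CPM in control, lower by 1.52-fold to 1.65-fold. Mt-Nd3 was lower by 1.38-fold to 1.74-fold, and 11 of the 12 measured transcripts of this list had a mean below 0, with a median of -0.32. Nuclear genes of the respiratory chain went the other way: 23 of 27 had a mean above 0, with a median of 0.17. The median over all measured genes was -0.05. Of these nuclear genes, 2, 1, 13 and 6 were called higher and 0, 1, 0 and 0 lower in clusters 2, 3, 5 and 7. Uqcrfs1 was the 1 gene called in all 4. The percentage of mitochondrial UMIs is also a mark of cell quality, and its part in these differences was not tested.

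Several lists differed between libraries in some of the clusters and not in others, as the plot of list medians shows. The genes of antigen presentation on MHC class II were lower in APM in clusters 2, 3 and 5 and not in cluster 7. Counts of list members called are given over those measured in all 4 clusters. Of 6 such members, 6, 5, 4 and 0 were called lower in clusters 2, 3, 5 and 7, and none was called higher. H2-Ab1, a class II chain named after its values were seen, stood at 178, 204, 170 and 249 CPM in APM and 350, 265, 280 and 276 CPM in control. Dendritic cell markers, from cells rich in class II, summed to 12.6 against 25.6 CPM in cluster 2, 12.9 against 15.3 in cluster 3, 30.8 against 30.2 in cluster 5 and 41.4 against 53.6 in cluster 7, and 2 of the 10 were measured in all 4 clusters. Between 2 and 6 of the 10 were at 0 in each sum, and Batf3 and Ccl22 were the pair measured. Their part in the class II difference was not tested.

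Nrf2 targets, the antioxidant genes, had 2, 0, 0 and 0 members higher and 1, 4, 9 and 10 lower of 23 measured in clusters 2, 3, 5 and 7, with a median mean log2 ratio of -0.18. Cluster 2, whose leading genes include several of this list, was the cluster with the fewest lower. Genes of sterol synthesis were divided in the same way, with 2, 2, 2 and 0 higher and 0, 0, 8 and 9 lower of 17 measured. Insig1, a sterol sensor that restrains the pathway and was named after its values were seen, stood at 195, 230.5, 90.5 and 79.5 CPM in APM and 102, 119, 68.5 and 78.0 CPM in control. The unfolded protein response list gave 4, 8, 3 and 1 higher and 0, 0, 2 and 2 lower, so its calls leaned upward in clusters 2 and 3. Cytosolic ribosomal proteins had a median of 0.11, beside -0.05 over all measured genes, with 28 of 35 means above 0. Rpl35 was the 1 gene of this list called in all 4. These shares stand beside the background of each cluster given above, and no list was tested.

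**Figure D3:**
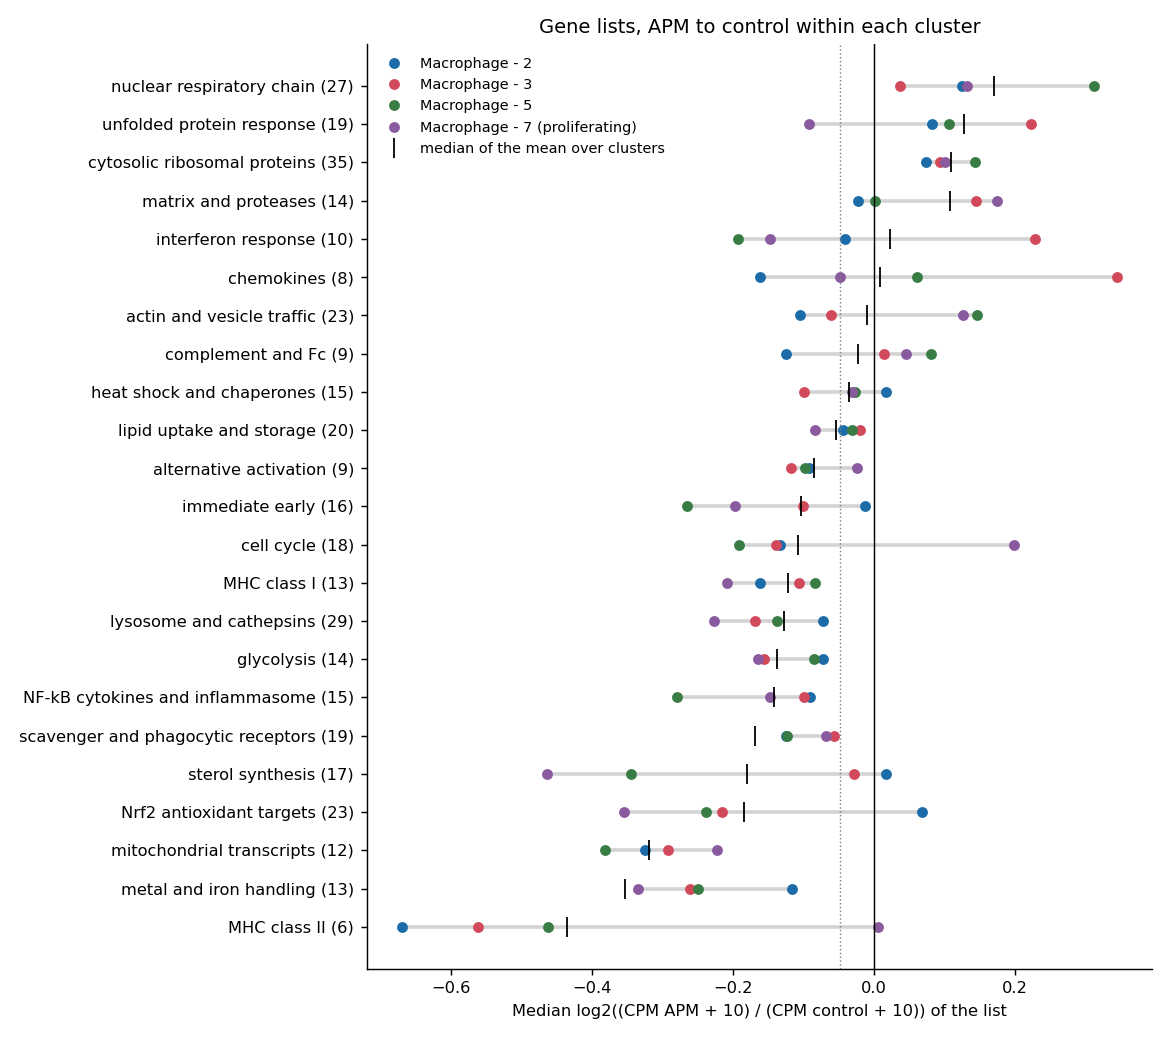
Median log2 ratio of APM to control, with 10 CPM added, over the members of each gene list measured in all 4 clusters (number in brackets). The aryl hydrocarbon receptor list, with 3 such members, and the lung surfactant and secretory list are not drawn. Coloured points are the 4 clusters and the black tick is the median of the members' means. The dotted line is the median of all 7402 measured genes. MHC class II lies lowest in clusters 2, 3 and 5 and at 0.01 in cluster 7, and the sterol and Nrf2 lists spread from near 0 in cluster 2 to -0.46 and -0.35 in cluster 7.

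Few genes were called in opposite directions in different clusters, 55 of the 8811 measured in at least 2 clusters (0.624%). Cxcl10, an interferon-induced chemokine, stood at 46.1 CPM in APM and 10.6 CPM in control in cluster 3, and at 11.6 and 29.1 CPM in cluster 7. Of the 10 interferon response genes measured in all 4 clusters, 0, 2, 0 and 2 were called higher in clusters 2, 3, 5 and 7. In the same order, 0, 1, 3 and 1 were called lower. Rsad2, an antiviral enzyme named after its values were seen, stood at 77.2 against 19.4 CPM in cluster 3. Gdf15, a stress-induced cytokine, was higher in cluster 2 (176 against 102 CPM) and cluster 3 (194 against 149 CPM) and lower in cluster 7 (69.6 against 122 CPM). Serpinb1a, an inhibitor of neutrophil proteases, stood at 7.50 against 24.3 CPM in cluster 3, 117 against 79.0 CPM in cluster 5 and 123 against 72.4 CPM in cluster 7. Ccl9, a macrophage chemokine, was lower in cluster 2 (18.9 against 39.8 CPM) and higher in cluster 5 (67.3 against 37.5 CPM). Mrpl39, a mitochondrial ribosomal protein, and Gm29666 were lower in cluster 3 and higher in cluster 7 from counts of 30 UMIs or fewer in each APM cluster. When every cell was thinned to 1000 UMIs, 25 genes were called in opposite directions and 4 of them were among the 55.

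The same genes were then read in 3 other macrophage clusters of the 2 libraries with at least 50 cells in each. In Macrophage - 1 (1360 control and 94 APM cells), 22 of 55 measured higher genes were called higher (2.36% of all 8476 genes were) and 18 of 56 lower genes were called lower (2.42%), with none called in the opposite direction. In Macrophage - 8 (107 and 205 cells), 27 of 48 were higher (4.12% of 2959) and 10 of 48 lower (4.22%), and Notch2 was the 1 gene called the other way. In Macrophage - 9 (70 and 62 cells), 26 of 46 were higher (4.89% of 3273) and 16 of 45 lower (5.44%), with none the other way. These clusters come from the same libraries as the 4 compared, so they give no independent check. Mt2 stood at 3632 against 3723 CPM in Macrophage - 1, at 1998 against 3125 in Macrophage - 8 and at 3822 against 4541 in Macrophage - 9, and was called in Macrophage - 8 only.

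The HDM+APM and HDM libraries are separate from the first pair and gave a second comparison of dust with air, in allergen-treated mice. It was read in Macrophage - 8 (109 HDM+APM and 139 HDM cells) and in the other macrophage clusters as 1 sum (46 and 60 cells, the former under the 50 cells asked for elsewhere). A shift in the mix of clusters can enter that sum. In Macrophage - 8, 10 of 54 measured higher genes were again called higher (5.36% of 5164) and 13 were called lower (8.15%). In the other macrophages, 4 of 50 were called higher (5.46% of 3550) and 11 lower (5.8%). Of the 56 genes lower with dust in the first pair, 6 of 54 were again lower and 2 higher in Macrophage - 8, and 9 of 51 were lower and none higher in the other macrophages. The genes higher in the first pair were thus called in either direction more often than all genes were, and in Macrophage - 8 more of them went the other way than the same way. Of the 10 called higher again, 6 were Scgb1a1, Scgb3a1, Scgb3a2, Bpifa1, Reg3g and Wfdc2.

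**Figure D4:**
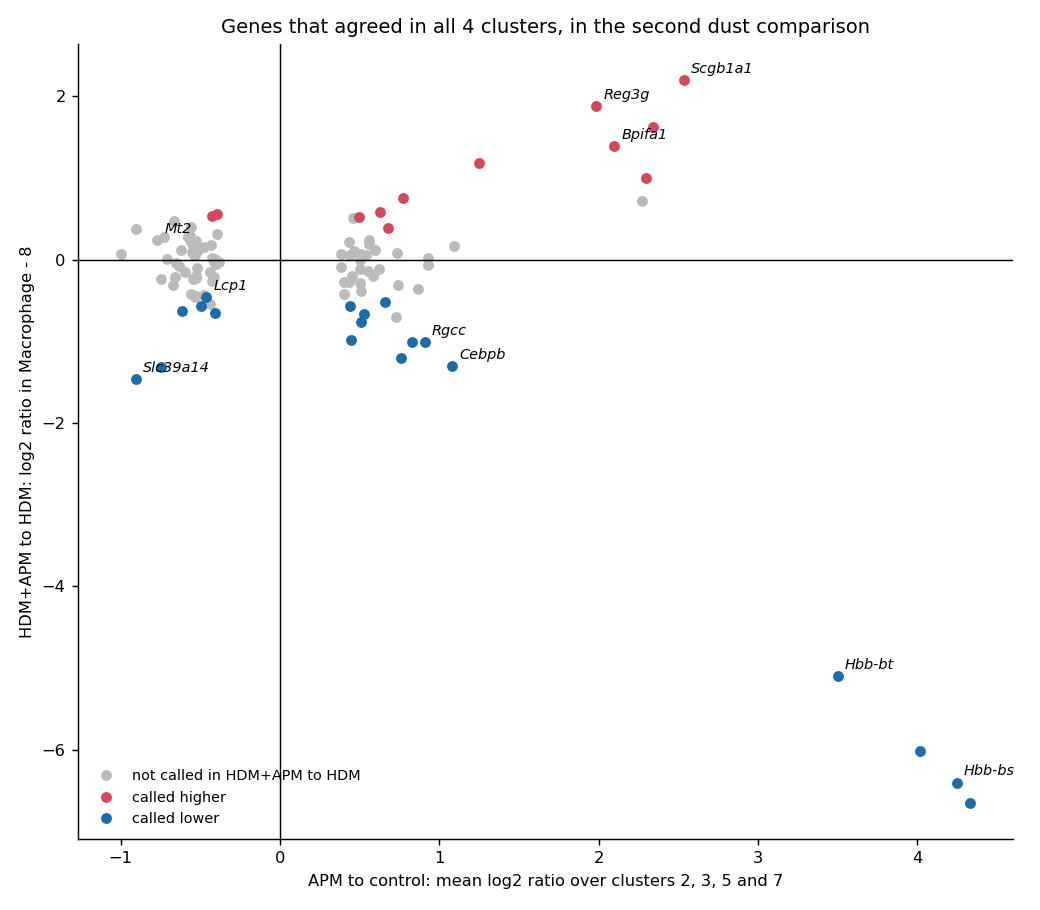
Each point is 1 of the genes that agreed in all 4 clusters and had at least 20 UMIs in Macrophage - 8 of the HDM and HDM+APM libraries; the horizontal axis is the mean log2 ratio of APM to control over clusters 2, 3, 5 and 7 and the vertical axis the log2 ratio of HDM+APM to HDM in Macrophage - 8, colour marking its call there. Secretory genes such as Scgb1a1 are high on both axes, and the 4 haemoglobin genes are high on the first and lower by over 5 log2 units on the second.

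The haemoglobins and Cebpb were the clearest reversals. Over the matched clusters together, Hbb-bs stood at 117 CPM in control, 2597 in APM, 1011.5 in HDM and 25.6 in HDM+APM, the last 2 from 45 and 38 cells. Cebpb stood at 622, 1562, 1371 and 623 CPM in the same order, so the APM and HDM libraries were the higher ones for both genes. These levels of both genes are sums over clusters, so the mix of clusters can enter them. In Macrophage - 8, HDM+APM was lower than HDM for Cebpb, at 650 against 1624 CPM, a log2 ratio of -1.31, and for Hbb-bs, at 20.3 against 2556 CPM. The part of blood in the level of Cebpb was not tested.

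Most measured secretory genes kept their direction. Scgb1a1 stood at 1345 CPM in HDM+APM and 285 CPM in HDM in Macrophage - 8, while Sftpc was not called there and Ltf, Bpifb1 and Cyp2f2 had too few UMIs. The cells labelled epithelial numbered 25 in HDM+APM and 4 in HDM. Lcp1 was lower with dust in both macrophage sets of this pair, at 545 against 751 CPM and 698 against 937 CPM, and so was H2-K1, at 1965 against 2916 and 1476 against 2282 CPM. Slc39a14 and Cxcl2 were called lower in Macrophage - 8. Mt2 stood at 332 against 281 CPM in Macrophage - 8 and at 1148 against 1288 CPM in the other macrophages, and was called in neither.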

How the data were processed

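Lavage cells of 7 mice per group were profiled with the 10x Genomics 3' v2 kit. Raw UMI counts of 13838 genes were deposited by the authors as a single matrix, beside a table giving the library, coarse type and refined cluster of every cell. Cell Ranger 2.2.0, Seurat 2.3.4 and the mm10 genome appear in the submitters' processing notes, which give no order of steps. All deposited cells were kept, and no doublet caller was run.

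Counts were summed per cluster and library (Python 3.11.15, numpy 2.4.6, scipy 1.17.1) and scaled to CPM. Ratios have exact conditional binomial intervals, and list medians use the mean log2 ratio over the 4 clusters with equal weights. No p-value was computed, since each group has 1 library. The call rule was tried on Poisson counts drawn around the control means of each cluster, with known folds put into some genes. Those counts hold counting error only, so the behaviour of the rule under differences between pools was not tested.

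The 4 clusters, the gene lists and the tests were chosen with earlier results of these data known. Named genes were the 15 in each direction with the largest smallest change, up to 3 agreeing members of each list, and the 6 genes with the largest opposite changes. Near-identical copies were sought with blastn 2.17.0 in the last 300 bases of GENCODE vM21 transcripts (95% identity over 90 bases). Alternatives varied the fold, the UMI minimum, the scaling, the pseudocount, the depth and a 5% subtraction of each library's mean profile. Xist was not analysed here.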

Additional observations from a re-analysis of the deposited data

Results flagged for a closer look

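Of the genes called in opposite directions in 2 clusters, 6 had the largest opposite changes, called higher in at least 1 cluster and lower in at least 1 other. The highest minus the lowest log2 ratio over the clusters was 2.30 for Cxcl10, 1.66 for Serpinb1a, 1.57 for Mrpl39, 1.49 for Ccl9, 1.47 for Gdf15 and 1.53 for Gm29666. These differences between clusters were not tested.

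Of the 58 genes higher with dust in all 4 clusters, 9 were called lower with dust in both macrophage sets of the allergen-treated pair, and none of the 56 lower genes was called higher in both. In Macrophage - 8 the log2 ratio of HDM+APM to HDM was -6.41 for Hbb-bs, -6.65 for Hba-a1, -6.01 for Hba-a2, -5.10 for Hbb-bt, -1.31 for Cebpb, -1.01 for Rgcc, -0.52 for Tomm6, -1.21 for Gm43796 and -0.56 for Chic2. With 1 library per group, the difference between the pairs was not tested.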

How the results depend on the processing

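The counts of shared genes depended most on the fold asked for. At 1.5-fold, 27 genes were higher, 11 lower and 31 opposite; at 2-fold, 15, 0 and 12; with the interval alone, 127, 112 and 103. The 0 at 2-fold comes from the fold rule and not from a test. With cells thinned to 1000 UMIs, where 3519 genes were measured in all 4 clusters, 22 were higher, all of them among the 58, 9 were lower, 7 of them among the 56, and 25 were opposite. Alternatives added after seeing the data asked for agreement in 3 clusters: 96 genes were lower without cluster 2, 95 without cluster 3 and 112 without cluster 7, and the counts of higher genes stayed within 1.5 times. Another UMI minimum, centring, a total without mitochondrial and ribosomal protein transcripts, means over cells and the 5% subtraction kept all 3 counts within 1.5 times. A minimum of 1000 UMIs per cell removed no cell of the 4 clusters, so its counts could not differ.

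Over the alternatives, 441 values of 50 named genes stayed within their counting error and 59 moved, none changing sign. The UMI minima per gene and the minimum of 1000 UMIs per cell could move none of these values. For the 6 genes with opposite changes the value was the highest minus the lowest log2 ratio, which cannot change sign. It was set against the counting error of the mean. Of the list medians, 187 stayed, 50 moved and 3 were counted as reversed in sign, which asked for a main median beyond its counting error. Lipid uptake and storage became 0.0113 with a minimum of 1 UMI and 0.11 with thinned cells, and cell cycle became 0.12 with thinned cells. Sign changes of smaller medians were counted as stayed or moved. The minimum of 1000 UMIs per cell could move none of the 24 medians. No paired analysis was possible because each group has 1 library. Depth limits how many genes were measured, from 7822 in cluster 7 to 8981 in cluster 3. Genes near 20 UMIs can be called only at large folds.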

Other observations

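Chemokines beyond Cxcl2 and Cxcl10 differed by cluster. Of the 8 listed chemokines measured in all 4 clusters, 1, 3, 3 and 2 were called higher in clusters 2, 3, 5 and 7. In the same order, 3, 1, 1 and 2 were called lower, and the list median was 0.01. Ccl6, a chemokine made by alveolar macrophages and a leading gene of cluster 5, stood at 7633 against 4933 CPM in cluster 5 and 4039 against 2688 CPM in cluster 7, both called higher in APM, and at 1569 against 1300 and 1277 against 1051 CPM in clusters 2 and 3. Ccl17, which attracts T cells, was called higher in clusters 3, 5 and 7, at 22.5 against 13.1, 29.4 against 11.3 and 26.5 against 9.40 CPM. Ccl3, which attracts monocytes, was called higher in cluster 2, at 58.4 against 22.4 CPM, and in cluster 3, at 123 against 79.3 CPM.

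Psap, the precursor of the saposins that help degrade lipids in lysosomes, stood at 8203, 6449, 4611 and 3538 CPM in APM clusters 2, 3, 5 and 7 and at 9715, 8643, 7466 and 5821 CPM in control, called lower in clusters 3, 5 and 7. Cd63, a membrane protein of late endosomes and a leading gene of cluster 3, went the other way, at 972, 1716, 774 and 279 CPM in APM and 637, 1354, 511 and 257 CPM in control. In the proliferating cluster 7, Stmn1, a microtubule regulator of dividing cells, stood at 1584 against 1177 CPM, and Birc5, a regulator of chromosome segregation, at 332 against 264 CPM. Cdk1, the mitotic kinase, stood there at 181 against 210 CPM and was not called. These genes were named after their values were seen.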
